A study of Homo sapiens with 36 samples.

Results

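The comparison of MEIS2-KO with ctrl-KO was taken by label: 6 RNA-seq libraries of human neural stem cells (hNSC) labelled as CRISPR knockout of MEIS2 and 6 labelled as its control, 12 of the 36 libraries of the series. Genes with at least 10 counts summed over these 12 libraries were tested, which left 17783 of the 28516 genes in the table. The remaining libraries are MEIS1-KO, which shares the ctrl-KO libraries, and the CRISPR-activation conditions MEIS1-OE, MEIS2-OE and ctrl-OE, with 6 libraries each. In MEIS2-KO, hNSC bought as a commercial stock were infected with lentivirus carrying Cas9 and a 1:1 mixture of 2 guide RNAs against MEIS2. In ctrl-KO the same cells received Cas9 with a non-targeting guide RNA, and both groups were harvested 48 h after infection. Both groups therefore carried virus, Cas9 and a guide RNA, whereas no cut of a chosen site was made in ctrl-KO. Loss of MEIS2 and the cutting of DNA by a targeted guide RNA cannot be told apart in this comparison. No clones were picked, so each library is the average of edited and unedited cells. In such bulk RNA, fewer cells of a type and less RNA per cell cannot be told apart. The labels do not say that the 6 replicates were separate cultures, so the p-values measure the spread between these samples, which may be partly technical.

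MEIS2 is a homeobox transcription factor of the TALE class, whose members carry a homeodomain lengthened by an extra loop. It binds DNA together with PBX proteins, which belong to the same class, and with HOX proteins. In the developing brain MEIS2 is known from the ganglionic eminence and striatal neurons, and it also acts in neural crest, heart and limb. hNSC are dividing cells that keep stem cell factors such as SOX2 and PAX6 and can form neurons and glia.

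The guide RNAs fix where MEIS2 was cut, so both are shown with their genomic site, in which the bases in capitals are the adjoining NGG motif that Cas9 needs. All sites are given 5′ to 3′ on the strand of the guide in GRCh37 (hg19).
MEIS2-g2: cccactcagcaggcaccccaGGG
MEIS2-g5: gttctgatgtcaggataccaAGG
The MEIS2-g2 site is chr15:37376024-37376046 (minus strand), in exon 7 of 12 of the transcript MEIS2-221. Its cut falls in codon 233 of 477, and the site is coding sequence in 14 of 14 coding transcripts. The MEIS2-g5 site is chr15:37376084-37376106 (plus strand) and straddles the edge of exon 7, with 3 bases of its protospacer in the exon and the cut in the intron, 14 bases from the exon. The cuts are 71 bases apart. Each guide had 1 perfect match beside an NGG motif in the genome.

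Sequencing depth was similar in both groups, with total counts of 15429985 to 22880347 (median 20614866) in MEIS2-KO and 17598743 to 21855364 (median 19415519) in ctrl-KO. Of 9 markers of neural stem cells, 9 were above 1 CPM (the share of a library's counts, in parts of 1e6), among them SOX2, NES and VIM. Their summed CPM was 4720 to 5648 in MEIS2-KO and 4065 to 4670 in ctrl-KO. Markers of pluripotent cells summed to at most 0.194 CPM in any library, with ZFP42 and UTF1 at 0 counts. Markers of epithelium and endoderm summed to at most 0.685 CPM, with KRT5, SOX17 and FOXA2 at 0 counts. Some genes that mark other cells were present, namely COL3A1, CDH5, TUBB3 and MAP2. The summed CPM of 5 endothelial or blood markers was 27.1 to 32.9 in MEIS2-KO and 21.8 to 25.1 in ctrl-KO. For 7 mesenchymal or neural crest markers the sum was 568 to 727 in MEIS2-KO and 501 to 680 in ctrl-KO, with PRRX1 at or near 0. For 7 neuronal markers it was 782 to 948 in MEIS2-KO and 928 to 961 in ctrl-KO, with RBFOX3, NEUROD1 and STMN2 at or near 0. The part of other cell types in the results below was not tested.

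MEIS2 mRNA was lower in MEIS2-KO. Scaled to library sizes by the TMM method, its level was 10.2 CPM in the lowest MEIS2-KO library, 11.8 in the median and 13 in the highest, and 22.4, 25.2 and 26.2 CPM in ctrl-KO. Every MEIS2-KO library lay below every ctrl-KO library. The group means were 11.7 ± 0.93 CPM (SD, n = 6) and 24.6 ± 1.43 CPM (SD, n = 6), which is a log2 fold change of -1.08 ± 0.06 (SE) with an adjusted p of 4.02e-09 by the quasi-likelihood test of edgeR. Counts over the whole gene do not measure the share of edited alleles or the protein. The paralog MEIS1 was measured at 20.1, 22.1 and 23.4 CPM (lowest, median, highest) in MEIS2-KO and at 22.7, 24.4 and 26.1 CPM in ctrl-KO. In MEIS1, 5 of 6 MEIS2-KO libraries lay below all ctrl-KO libraries, and its log2 fold change of -0.16 did not pass the threshold (adjusted p = 0.0642, edgeR), though it did with replicate number as a block (adjusted p = 0.0224). The plot of 10 genes by library shows both paralogs beside 8 genes described below.

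**Figure D1:**
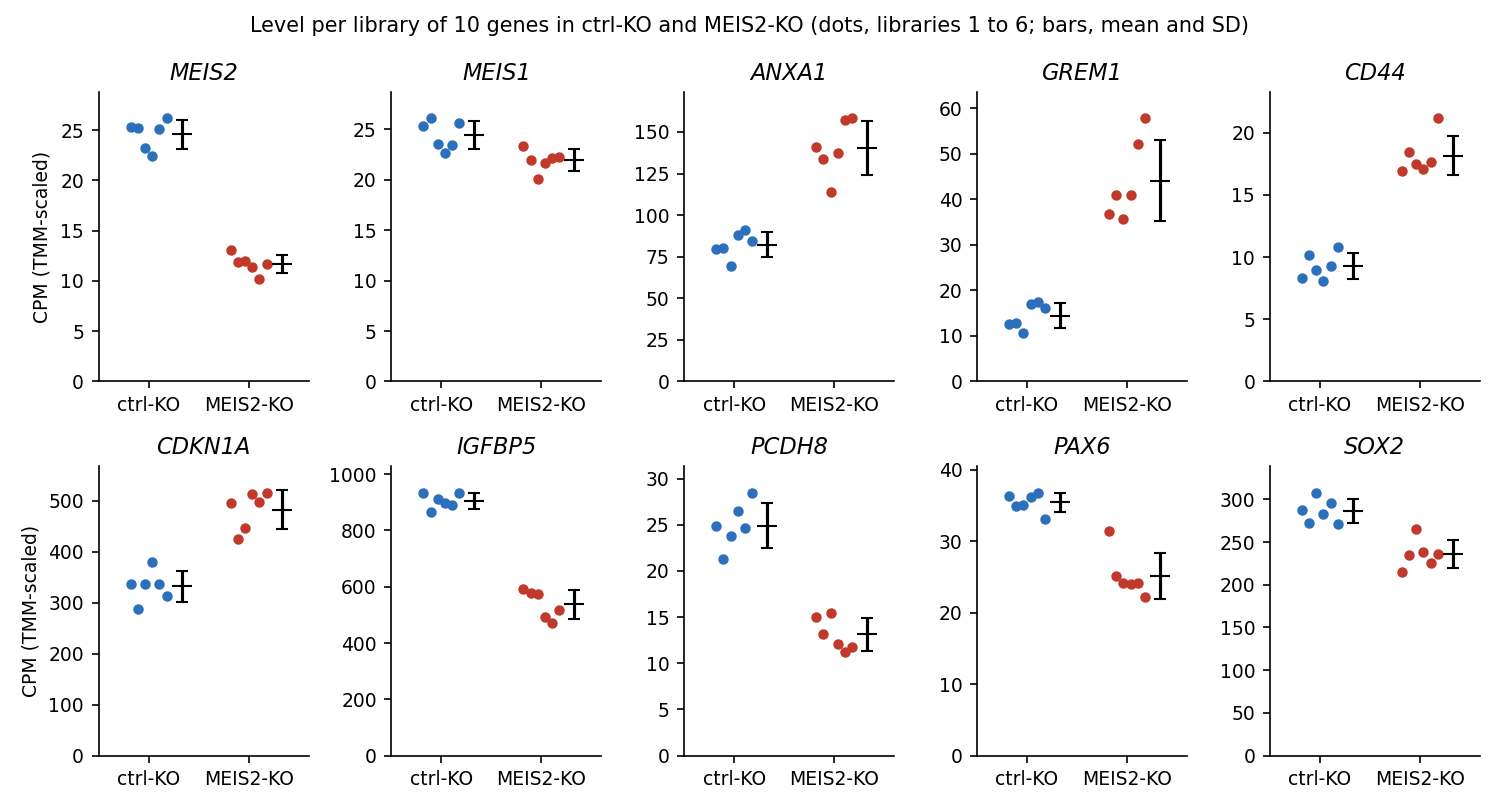
Levels of 10 genes in CPM scaled by TMM (vertical axes, starting at 0) in the 6 ctrl-KO and 6 MEIS2-KO libraries, with 1 dot per library in the order of replicate numbers 1 to 6 and the mean with SD beside them. The groups overlap for MEIS1 and for none of the other 9 genes; MEIS2 fell from 24.6 to 11.7 CPM and ANXA1 rose from 82.2 to 140.3 CPM.

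At an adjusted p under 0.05, 1273 of the 17783 tested genes (7.16%) were higher in MEIS2-KO and 1251 (7.03%) were lower, so 2524 genes (14.2%) were called. Most of these differences were small. An absolute log2 fold change above 0.58, or 1.5-fold, was reached by 280 called genes that rose (1.57% of the tested genes) and 73 that fell (0.411%). Among the 2358 genes above 100 CPM, 211 rose and 346 fell, with a median absolute log2 fold change of 0.19 among those called. Of these 2358 genes, 6 rose and 3 fell by more than 1.5-fold. Among the 3433 genes between 1 and 10 CPM the called genes had a median absolute log2 fold change of 0.49. The groups did not overlap for 1172 genes (6.59%). The count of calls moved with the libraries, from 736 higher and 641 lower genes without replicate 5 of both groups to 1562 and 1438 without ctrl-KO replicate 4. Without replicate 6 of both groups they were 825 and 663. With replicate number as a block there were 2351 higher and 2074 lower genes, 24.9% of the tested genes. Counts of gene lists below are to be read beside 7.16% higher and 7.03% lower. Those with the replicate block are to be read beside the larger counts of that fit.

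Genes that rose with the smallest p included GREM1, CD44, ANXA1 and PLAU. Named here are, for each direction, genes from the 15 of smallest p among those past 1.5-fold whose groups did not overlap. GREM1, a secreted antagonist of BMP ligands, was at 35.7, 40.8 and 57.8 CPM in MEIS2-KO against 10.7, 14.5 and 17.4 CPM in ctrl-KO (lowest, median, highest). All 6 knockout libraries were above all controls, and GREM1 rose 3.03-fold (adjusted p = 1.23e-07, edgeR). CD44, the hyaluronan receptor, was at 16.9 to 21.2 CPM in MEIS2-KO and 8.12 to 10.8 CPM in ctrl-KO, a log2 fold change of 0.96 (adjusted p = 2.48e-07, edgeR). ANXA1, a phospholipid-binding annexin, rose by 0.77 and PLAU, the urokinase plasminogen activator, by 0.87 on the log2 scale (adjusted p = 9.82e-07 and 4.62e-06, edgeR). The exons of PLAU overlap those of C10orf55 on the other strand over 31% of their length, but the latter had only 0.0703 CPM in ctrl-KO. Transcription factors in this group were FOSL1 (log2 fold change 0.68), a subunit of AP-1, the stress-induced ATF3 (0.69) and the p53 relative TP73 (0.79). The p-values of these 3 were 1.86e-06, 6.73e-06 and 5.83e-06 (adjusted, edgeR). TP73 shares 9.35% of its exon length with TP73-AS1 on the other strand, which had 79.9 CPM in ctrl-KO against 4.18 CPM of TP73. Since the strand setting of the counting is not given in the sources used here, part of the TP73 count could be reads of TP73-AS1. The others were CSMD3 (0.72), IER3 (0.71), MAMDC2 (1.12), TM4SF18 (0.82), ECSCR (0.77), LAPTM5 (0.63) and ANKRD33B (0.70), with adjusted p between 1.13e-06 and 6.64e-06.

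The 15 decreases of smallest p were in genes of varied function. IGFBP5, which binds insulin-like growth factors, was measured at 470, 547 and 593 CPM in MEIS2-KO (lowest, median, highest) and at 864, 903 and 934 CPM in ctrl-KO. The groups were far apart relative to their spread, at a log2 fold change of -0.75 ± 0.05 (SE; adjusted p = 2.02e-08, edgeR). EPHA3, a receptor of ephrins in axon guidance, was at 43.1, 46.4 and 51.1 CPM against 66.5, 74.5 and 75.8 CPM, a log2 fold change of -0.64 (adjusted p = 1.63e-07, edgeR). PCDH8, a protocadherin, was at 11.2, 12.6 and 15.4 CPM against 21.3, 24.8 and 28.5 CPM, a log2 fold change of -0.93 (adjusted p = 6.81e-07, edgeR). In both of these genes all knockout libraries were below all controls. PCDH18, another protocadherin, fell by 0.61 and LRRTM3, a synaptic adhesion protein that binds neurexins, by 0.95 on the log2 scale (adjusted p = 2.79e-05 and 2.14e-05, edgeR). Secreted proteins that fell were SMOC1 (-0.91), a matrix protein that antagonises BMP signalling, the ligand BMP3 (-0.69), the ligand FGF10 (-0.63) and the protease ADAMTS3 (-0.61). Transcriptional regulators that fell were TOX (-0.79) and ONECUT2 (-0.59). ABCA5 (-0.73), KIAA1644 (-0.74) and HS3ST3B1 (-0.65) complete the 15 together with MEIS2, and their adjusted p, like those of the secreted proteins and regulators, lay between 7.98e-06 and 1.76e-04. Of these 30 genes of smallest p, KIAA1644 is also on the list of predicted off-target genes below.

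Among the most abundant transcripts that were called, differences were small. VIM, the intermediate filament vimentin, was at 2679, 2964 and 3293 CPM in MEIS2-KO and at 2203, 2331 and 2463 CPM in ctrl-KO (lowest, median, highest). Its rise of 27.2% on average (log2 fold change 0.35, adjusted p = 9.44e-05, edgeR) left no overlap. SPARC, a secreted matrix glycoprotein, rose by 0.25 and LAMC1, a laminin chain, by 0.17 on the log2 scale (adjusted p = 0.00152 and 0.0142, edgeR). RPL3 (0.14) and NES (0.20) rose as well (adjusted p = 0.0464 and 0.0461, edgeR), but neither passed with correction for GC content. NES then had an adjusted p of 0.349, and it was lost in 11 of 19 alternatives. PRTG, an adhesion protein of the neural tube, fell by 0.30 and SCD, a desaturase of fatty acid synthesis, by 0.24 (adjusted p = 0.00142 and 3.80e-04, edgeR). STMN1 (-0.16), HMGCS1 (-0.18) and HNRNPA2B1 (-0.12) also fell (adjusted p = 0.0352, 0.0286 and 0.0421, edgeR), the last 2 of which did not pass with GC correction (adjusted p = 0.0599 and 0.286). The calls of STMN1 and HMGCS1 were each lost in 8 of 19 alternatives, and those of RPL3 and HNRNPA2B1 in 11.

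Genes raised by p53, the transcription factor that answers DNA breaks, were higher in MEIS2-KO nearly as a whole. Of 36 such genes, 36 were tested, 31 rose and 0 fell, where 7.16% of all tested genes rose. The median log2 fold change of the 36 genes was 0.30, against 0.01 over all tested genes. TP53I3, an oxidoreductase, was at 124, 128 and 134 CPM in MEIS2-KO and at 86.0, 92.7 and 98.1 CPM in ctrl-KO. CDKN1A, the p21 inhibitor of the cell cycle, was at 426, 497 and 516 CPM against 289, 337 and 380 CPM. The groups did not overlap in either gene, and their log2 fold changes were 0.49 and 0.54 (adjusted p = 3.40e-07 and 5.72e-06, edgeR). GADD45A, a stress sensor, rose by 0.43 and FDXR, a ferredoxin reductase, by 0.65 (adjusted p = 1.50e-05 and 2.07e-05, edgeR). The feedback inhibitor MDM2 rose by 0.35 (adjusted p = 1.76e-04), with 5 of 6 libraries above all controls, and the secreted factor GDF15 by 0.85 (adjusted p = 2.49e-05). Of the effectors of cell death, BAX rose by 0.33, BBC3 by 0.43 and FAS by 0.41 on the log2 scale (adjusted p = 8.79e-04, 0.0137 and 5.46e-04, edgeR). PMAIP1, another death effector, was at 9.17 ± 0.894 CPM in MEIS2-KO and 9.84 ± 0.693 CPM in ctrl-KO (SD, n = 6), without a call (adjusted p = 0.466, edgeR). Taken per library as the mean log2 deviation of the 36 genes from the ctrl-KO mean, the level was 0.24 to 0.35 in MEIS2-KO and -0.05 to 0.04 in ctrl-KO. In MEIS1-KO, which was compared with the same controls, 9 of 36 rose and 0 fell, with a median log2 fold change of 0.23. Between the knockouts, 0 of the 36 genes differed, while with GC correction and replicate block together MDM2 did, by 0.15 on the log2 scale (adjusted p = 0.024, edgeR).

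Of 42 tested genes of DNA replication and entry into S phase, 16 fell, 1 rose and 25 were not called, with a median log2 fold change of -0.12. MCM6, a subunit of the replicative helicase, was at 231, 255 and 267 CPM in MEIS2-KO and at 302, 312 and 344 CPM in ctrl-KO. Its groups did not overlap, with a log2 fold change of -0.32 (adjusted p = 4.91e-05, edgeR). POLA1, the catalytic subunit of DNA polymerase alpha, fell by 0.31, the kinase CDC7, which fires replication origins, by 0.27 and cyclin E2 (CCNE2) by 0.35 on the log2 scale (adjusted p = 2.00e-04, 8.15e-04 and 0.00133, edgeR). The exons of CCNE2 overlap those of INTS8 on the other strand over 37% of their length. The exception was CCND3, cyclin D3, which rose by 0.27 (adjusted p = 0.00839, edgeR). Among 37 mitotic genes, 9 fell and 1 rose, with a median of -0.04. MKI67, a marker of dividing cells, fell from 606 ± 52.2 to 489 ± 27.7 CPM (SD, n = 6; adjusted p = 3.73e-04, edgeR), and CENPE, a kinetochore motor, from 178 ± 5.06 to 145 ± 9.36 CPM (SD, n = 6; adjusted p = 1.22e-04, edgeR). UBE2C, which ends mitosis, rose by 0.22 (adjusted p = 0.00708, edgeR). With GC correction 24 replication genes fell and 1 rose, and 7 mitotic genes fell and 3 rose. In that fit 1324 of all 17783 tested genes fell and 1373 rose. With the replicate block 27 replication genes fell and 1 rose, and 12 mitotic genes fell and 3 rose. Over all tested genes 2074 fell and 2351 rose with the block.

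**Figure D2:**
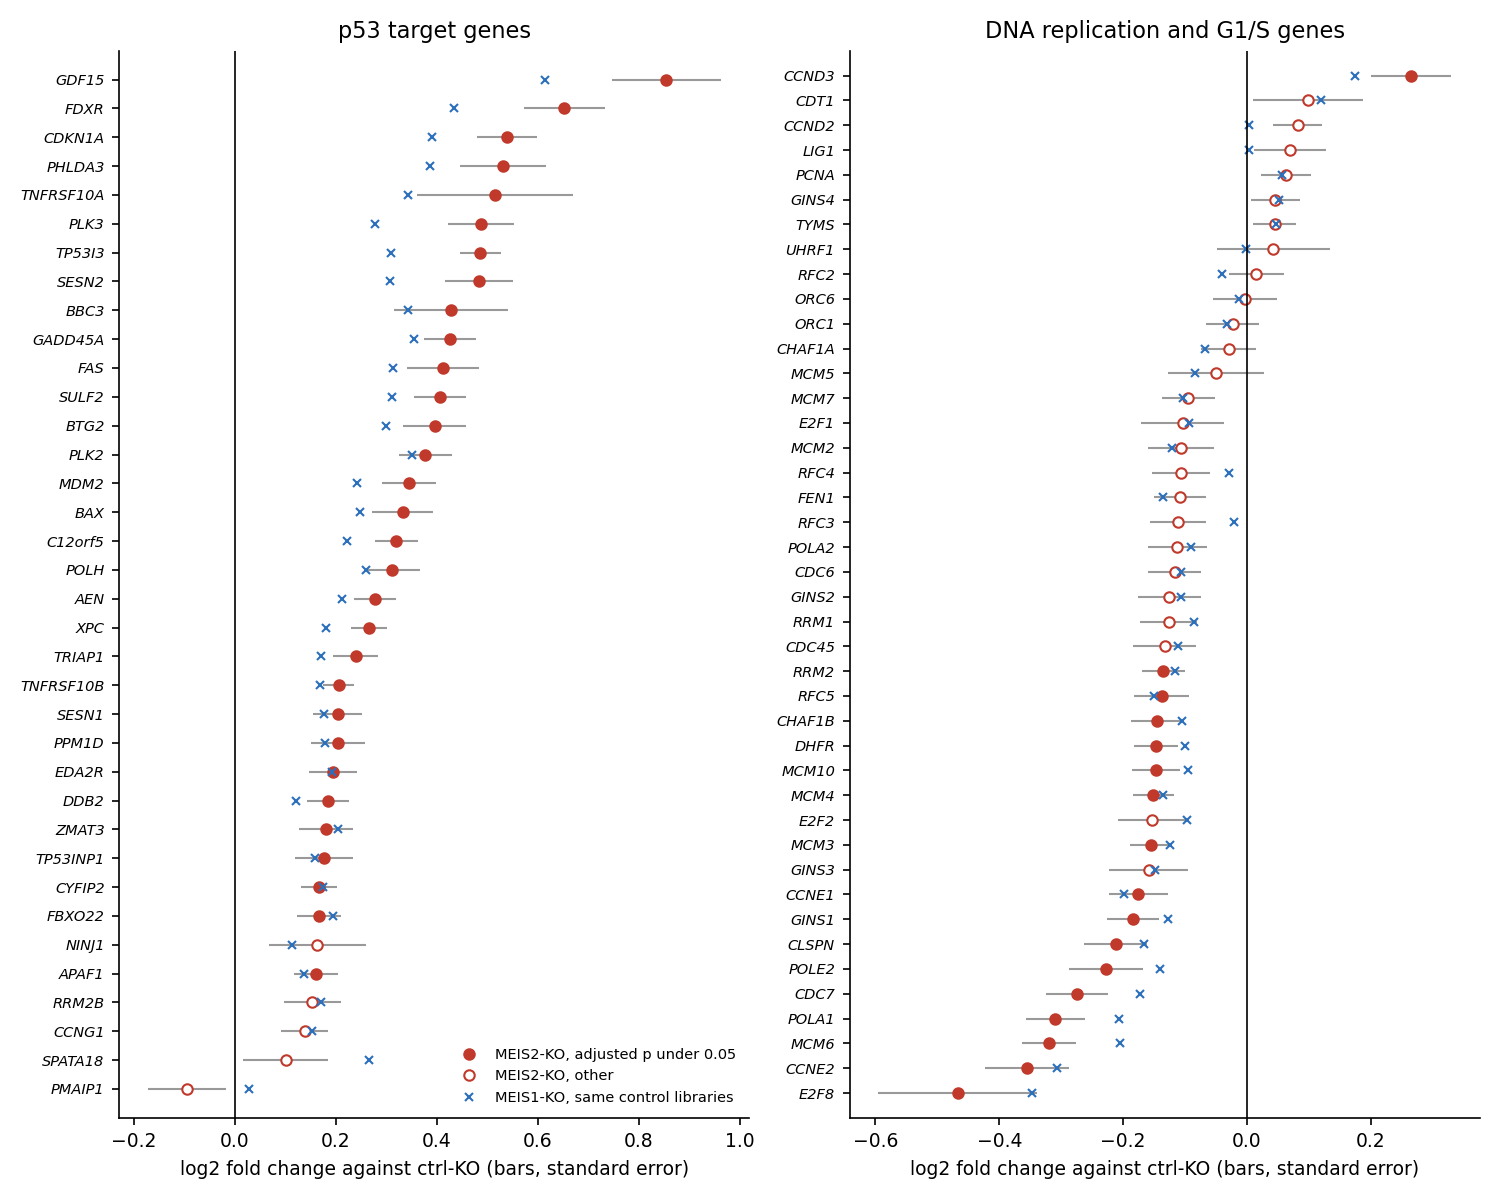
Log2 fold changes (horizontal axis, with standard errors) of the p53 target genes and the genes of DNA replication and G1/S in MEIS2-KO against ctrl-KO, filled where the adjusted p was under 0.05, with the values of MEIS1-KO against the same controls as crosses. Of the p53 target genes 31 of 36 rose, and of the replication genes 16 of 42 fell.

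A group of coagulation, plasminogen and wound-healing genes rose in large part. Of 27 tested members 14 rose and 0 fell, with a median log2 fold change of 0.37. With GC correction 12 rose and 0 fell, with a median of 0.23, and with the replicate block 15 rose and 4 fell. With both together 13 rose and 1 fell. Next to PLAU and ANXA1, the endothelial receptor of protein C (PROCR) rose, from a low level of 0.281 to 0.690 CPM in ctrl-KO to 1.26 to 1.76 CPM in MEIS2-KO. Its log2 fold change was 1.46 (adjusted p = 4.91e-05, edgeR). TFPI2, an inhibitor of serine proteases, was at 142, 158 and 178 CPM in MEIS2-KO and at 100, 112 and 118 CPM in ctrl-KO, with a log2 fold change of 0.52 (adjusted p = 5.67e-06, edgeR). The thrombin receptor family member F2RL2 rose by 0.82 and the transglutaminase F13A1 by 0.15 (adjusted p = 0.00133 and 0.0483, edgeR).

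Targets of YAP and TEAD, the effectors of the Hippo pathway, rose in 10 of 22 tested genes and fell in 0, with a median log2 fold change of 0.22, and with the replicate block 17 rose and 1 fell. ANKRD1 was at 41.8, 58 and 67.5 CPM in MEIS2-KO and at 18.6, 31.1 and 35.3 CPM in ctrl-KO. The receptor kinase AXL was at 57.9, 61.5 and 66.4 CPM against 38, 43.3 and 46.6 CPM. Neither gene overlapped between groups, with log2 fold changes of 0.92 and 0.53 (adjusted p = 3.26e-05 and 1.79e-06, edgeR). Of 25 AP-1 and immediate early genes, 8 rose, among them MYC (0.52) and JUN (0.46) beside FOSL1, IER3 and ATF3, and 1 fell, EGR2 (-0.88). The adjusted p of MYC, JUN and EGR2 were 3.21e-04, 0.0302 and 0.0171 (edgeR), and the call of EGR2 was lost with DESeq2 and without ctrl-KO replicate 1. With GC correction 7 of the 25 genes rose and 2 fell, and their median log2 fold change was 0.0025 instead of 0.12. As a mean log2 deviation from the ctrl-KO mean, the 20 genes above 1 CPM overlapped between groups. The range was -0.03 to 0.36 in MEIS2-KO libraries and -0.28 to 0.24 in ctrl-KO libraries. Among FGF and ERK feedback genes 7 of 16 rose and 2 fell. SPRY4, an inhibitor of receptor kinase signalling, rose from 154 ± 8.21 to 215 ± 12.4 CPM (SD, n = 6; adjusted p = 1.02e-06, edgeR), whereas its relative SPRY2 fell from 194 ± 3.98 to 170 ± 8.15 CPM (SD, n = 6; adjusted p = 0.0018, edgeR).

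Extracellular matrix and contractile genes rose in part. Of 37 collagen genes, 9 rose and 1 fell (18 and 1 with the replicate block), with COL1A1 up from 34.6 ± 7.68 to 73.3 ± 17 CPM (SD, n = 6; adjusted p = 4.19e-05, edgeR). The smooth muscle actin ACTA2 was at 127 to 146 CPM in MEIS2-KO and 93.3 to 101 CPM in ctrl-KO, and rose by 0.51 on the log2 scale (adjusted p = 3.94e-07, edgeR). TAGLN, an actin-binding protein of smooth muscle, rose by 0.89 (adjusted p = 4.39e-05, edgeR). ACTA2 shares 6.75% of its exon length with FAS, and TAGLN 34.1% with PCSK7, each on the other strand. Of 19 mesenchymal and neural crest genes 7 rose and 1 fell, namely TFAP2B, whose call was lost in 5 of 18 alternatives. Among 32 matrix proteases and their inhibitors 7 rose and 3 fell. MMP19 rose by 1.15 and MMP2 by 0.40 on the log2 scale (adjusted p = 1.43e-05 and 9.49e-05, edgeR).

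Angiogenesis genes went both ways, with 10 of 27 higher and 4 lower. EPAS1, the transcription factor HIF-2 alpha, rose by 1.12 and the receptor KDR by 0.44 (adjusted p = 1.50e-05 and 1.22e-05, edgeR), while the ligands VEGFC (-0.65) and ANGPT1 (-0.54) fell. The adjusted p of VEGFC was 0.0106. Of 9 endothelial and blood cell genes, 4 rose (CD68, TIE1, KDR and CDH5). CDH5 and CD68 also enter the sum of endothelial or blood markers given above, so that sum is not separate from this count. CDH5 made up most of it, with a median of 24.6 CPM in MEIS2-KO and 19 CPM in ctrl-KO. PECAM1 and AIF1, also in the sum, were not called (adjusted p = 0.35 and 0.25, edgeR).

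Neural stem cell genes were lower in the main. Of 22 tested genes 13 fell and 3 rose, with a median log2 fold change of -0.16. PAX6, a homeobox factor of radial glia, was at 22.2, 24.2 and 31.4 CPM in MEIS2-KO and at 33.1, 35.7 and 36.8 CPM in ctrl-KO. SOX2 was at 215, 236 and 265 CPM against 271, 285 and 308 CPM, and SOX1 at 72.6, 82.2 and 86.9 CPM against 96.1, 98.6 and 102 CPM. In all of these the groups did not overlap. Their log2 fold changes were -0.50, -0.28 and -0.31 (adjusted p = 4.57e-05, 4.83e-04 and 1.71e-04, edgeR). The exons of PAX6 overlap those of ELP4 on the other strand over 25.4% of their length, and ELP4 had a log2 fold change of -0.10. SLC1A3, the glial glutamate transporter, fell by 0.43, FABP7, a fatty acid binding protein of radial glia, by 0.34 and DACH1 by 0.44 on the log2 scale. The Notch effector HES5 fell from 0.705 ± 0.136 to 0.253 ± 0.239 CPM (SD, n = 6; adjusted p = 0.00522, edgeR), at a level where a library holds few reads. VIM, SOX9 (0.34) and NES rose. VIM and NES are the most abundant of the 9 stem cell markers. The summed CPM of those 9 markers, given above, was therefore higher in every MEIS2-KO library than in any ctrl-KO library. Among all 15 SOX genes tested, 8 fell and only SOX9 rose, with a median of -0.22. SOX11, a factor of young neurons, was at 194, 206 and 225 CPM in MEIS2-KO and at 238, 246 and 257 CPM in ctrl-KO (adjusted p = 1.68e-04, edgeR), and SOX21 fell by 0.42 (adjusted p = 3.50e-04, edgeR). With all libraries of the series in 1 fit, the adjusted p was 0.0585 for SOX2, 0.102 for SOX9 and 0.0965 for SOX21.

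Neuronal genes gave no single direction, with 7 of 20 higher and 4 lower and a median of 0.04. The neurofilament NEFM rose from 95.6 ± 7.18 to 132 ± 10.9 CPM (SD, n = 6; adjusted p = 2.11e-05, edgeR) and GAP43, a protein of growing axons, by 0.47 on the log2 scale. DCX, a marker of migrating young neurons, fell from 0.852 ± 0.338 to 0.438 ± 0.192 CPM (SD, n = 6; adjusted p = 0.036, edgeR). That call was lost on leaving out any of 7 single libraries, namely replicates 1 to 4 of MEIS2-KO and 3, 5 and 6 of ctrl-KO, with an adjusted p of up to 0.121. Of 20 neural patterning factors, 3 fell and 0 rose, beside 7.03% of all tested genes that fell. The 3 were PAX6, NR2F1 and NR2F2. NR2F1, an orphan nuclear receptor of cortical patterning, was at 135, 141 and 150 CPM in MEIS2-KO and at 185, 198 and 206 CPM in ctrl-KO. It fell by 0.47 on the log2 scale (adjusted p = 3.94e-07, edgeR). Genes of striatal and interneuron lineages, where MEIS2 is known to be active, fell in 3 of 13 cases (FOXP2, EBF1 and FOXP1) and rose in 0. Of all tested genes 7.03% fell. As a mean log2 deviation from the ctrl-KO mean, the 7 lineage genes above 1 CPM overlapped between groups. The range was -0.32 to -0.09 in MEIS2-KO libraries and -0.18 to 0.13 in ctrl-KO libraries. FOXP2 was at 21.3 to 26.1 CPM in MEIS2-KO and 29.1 to 34.7 CPM in ctrl-KO, with a log2 fold change of -0.41 (adjusted p = 1.45e-04, edgeR). Of 39 HOX genes in the table only 3 were tested, and 0 of them were called.

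Of 17 genes of the TALE class 5 fell, the targeted MEIS2 among them, 0 rose and 12 were not called, with a median log2 fold change of -0.13. MEIS2 is the only one of the 5 past 1.5-fold. IRX2, of the Iroquois branch, was at 117, 133 and 148 CPM in MEIS2-KO and at 162, 171 and 186 CPM in ctrl-KO. The groups did not overlap, with a log2 fold change of -0.36 (adjusted p = 7.48e-05, edgeR). PBX2 fell by 0.13 and PBX3 by 0.19 (adjusted p = 0.0167 and 0.0197, edgeR). Without MEIS2-KO replicate 5 the adjusted p of PBX2 was 0.0518, and without MEIS2-KO replicate 4 or ctrl-KO replicate 1 that of PBX3 was 0.0595 or 0.0508. With GC correction 10 TALE genes fell and 1 rose.

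**Figure D3:**
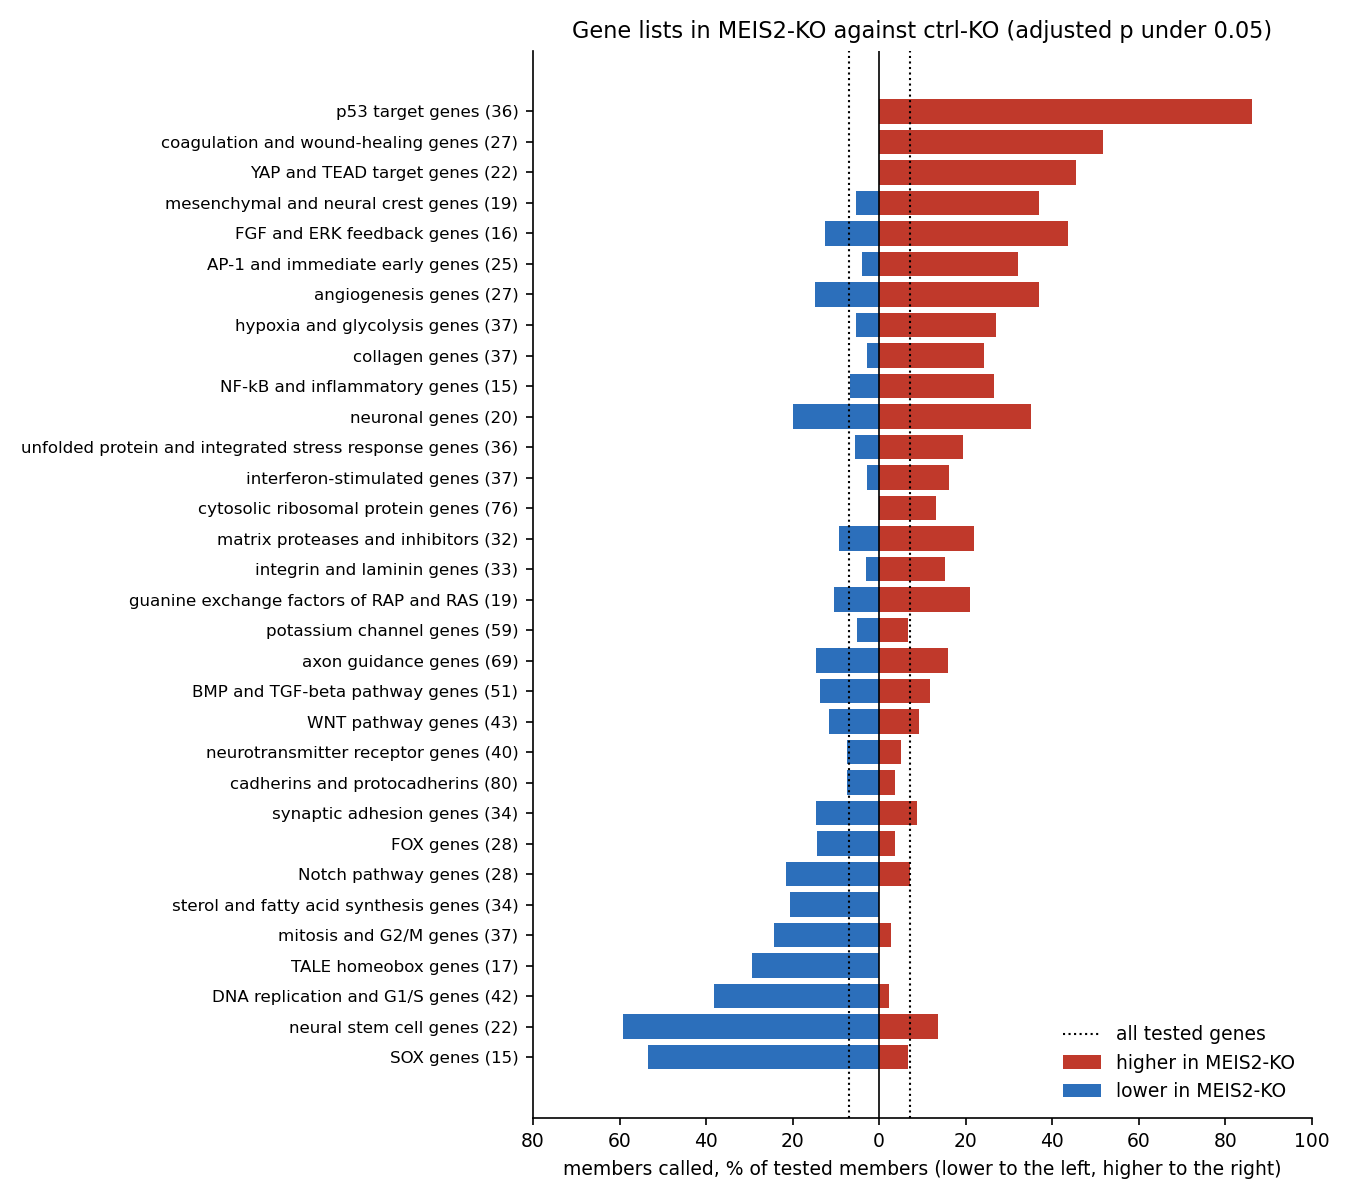
Share of the tested members of each gene list (number in brackets) that were called higher (right) or lower (left) in MEIS2-KO at an adjusted p under 0.05, with dotted lines at the shares of all tested genes, 7.16% higher and 7.03% lower. Lists with at least 10 tested and 5 called genes are drawn, ordered from those with more decreases to those with more increases.

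In the Notch pathway 6 of 28 genes fell and 2 rose. The ligand DLL1 fell by 0.43 and the sugar transferase MFNG, which modifies Notch receptors, by 1.01, whereas the related LFNG rose by 0.46 (adjusted p = 5.89e-04, 0.00168 and 3.39e-04, edgeR). In the WNT pathway 5 of 43 genes fell and 4 rose, and in the BMP and TGF-beta pathways 7 of 51 fell and 6 rose, beside 7.03% of all tested genes that fell and 7.16% that rose. The inhibitor DKK2 rose from 5.66 ± 0.796 to 10.5 ± 1.25 CPM (SD, n = 6; adjusted p = 7.11e-06, edgeR), and the R-spondin receptor LGR4 fell from 94.0 ± 4.80 to 66.8 ± 4.56 CPM (SD, n = 6; adjusted p = 2.66e-06, edgeR). Of the BMP genes beside GREM1 and BMP3, the receptor BMPR1B fell by 0.40, the target ID2 by 0.75 and the signal transducer SMAD9 by 0.85 on the log2 scale (adjusted p = 1.05e-04, 5.01e-04 and 0.00417, edgeR). Axon guidance genes rose in 11 of 69 cases and fell in 10. The semaphorins SEMA5A (-0.54), SEMA3D (-0.76) and SEMA3A (-0.31) fell, and the ephrin receptor EPHA2 rose by 0.52 (adjusted p = 5.28e-05, 1.88e-04, 1.26e-04 and 1.22e-04, edgeR). The split of axon guidance genes moved with GC correction, to 10 higher and 17 lower, and with the replicate block, to 17 and 16. Among 34 genes of sterol and fatty acid synthesis 7 fell and 0 rose (14 and 2 with the replicate block), with FADS1 down by 0.21 and SCD by 0.24. Of 76 cytosolic ribosomal protein genes 10 rose and 0 fell, a count that was 3 without MEIS2-KO replicate 6 and 23 without ctrl-KO replicate 4. With the replicate block 36 of them rose. In that fit 2351 of all 17783 tested genes rose and 2074 fell, against 1273 and 1251 without the block.

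Expression near the cut was compared gene by gene. Besides MEIS2, 7 tested genes lie within 2 Mb, and 4 of them fell and 0 rose, where 7.71% of all genes with a position and 8.41% of those on chromosome 15 fell. C15orf41, the next tested gene towards the centromere, lies from 36871827 to 37102449 on the plus strand, with its centre at -389 kb from the cut of MEIS2-g2. It was at 5.75 to 7.95 CPM in MEIS2-KO and 7.48 to 9.44 CPM in ctrl-KO, with a log2 fold change of -0.37 (adjusted p = 0.00606, edgeR), and its value in MEIS1-KO was 0.09 (adjusted p = 0.807). On the other side, SPRED1 at 1221 kb, an inhibitor of RAS signalling, fell by 0.26, FAM98B at 1387 kb by 0.15 and RASGRP1 at 1443 kb by 0.89 on the log2 scale (adjusted p = 0.00188, 0.0324 and 0.0474, edgeR). In MEIS1-KO these 3 had log2 fold changes of -0.11, -0.01 and -0.69. RASGRP1 was below 1 CPM in every library, and neither it nor FAM98B passed with GC correction (adjusted p = 0.0521 and 0.435, edgeR). The call of RASGRP1 was lost in 13 of 19 alternatives, DESeq2 and the fit of all libraries among them. DPH6 at -1702 kb did not pass (-0.25, adjusted p = 0.0539, edgeR). On the side of the telomere, 2 of 41 genes above 1 CPM fell and 5 rose from 2 to 5 Mb. Their median log2 fold change was -0.001. The median was -0.06 from 5 to 10 Mb (40 genes, 6 lower and 0 higher). It was -0.10 from 10 to 20 Mb (40 genes, 5 lower and 0 higher) and -0.03 from 20 to 70 Mb (237 genes, 25 lower and 16 higher). On the side of the centromere it was -0.04 from 2 to 5 Mb (17 genes, 1 lower and 2 higher). From 5 to 20 Mb on that side it was -0.06 (32 genes, 2 lower and 1 higher). Of all 13209 tested genes above 1 CPM, 1224 fell and 1159 rose. GREM1, whose rise is described above, lies on the same chromosome at -4.35 Mb and had a log2 fold change of 1.21 in MEIS1-KO. The genes within 2 Mb are named here for their position.

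**Figure D4:**
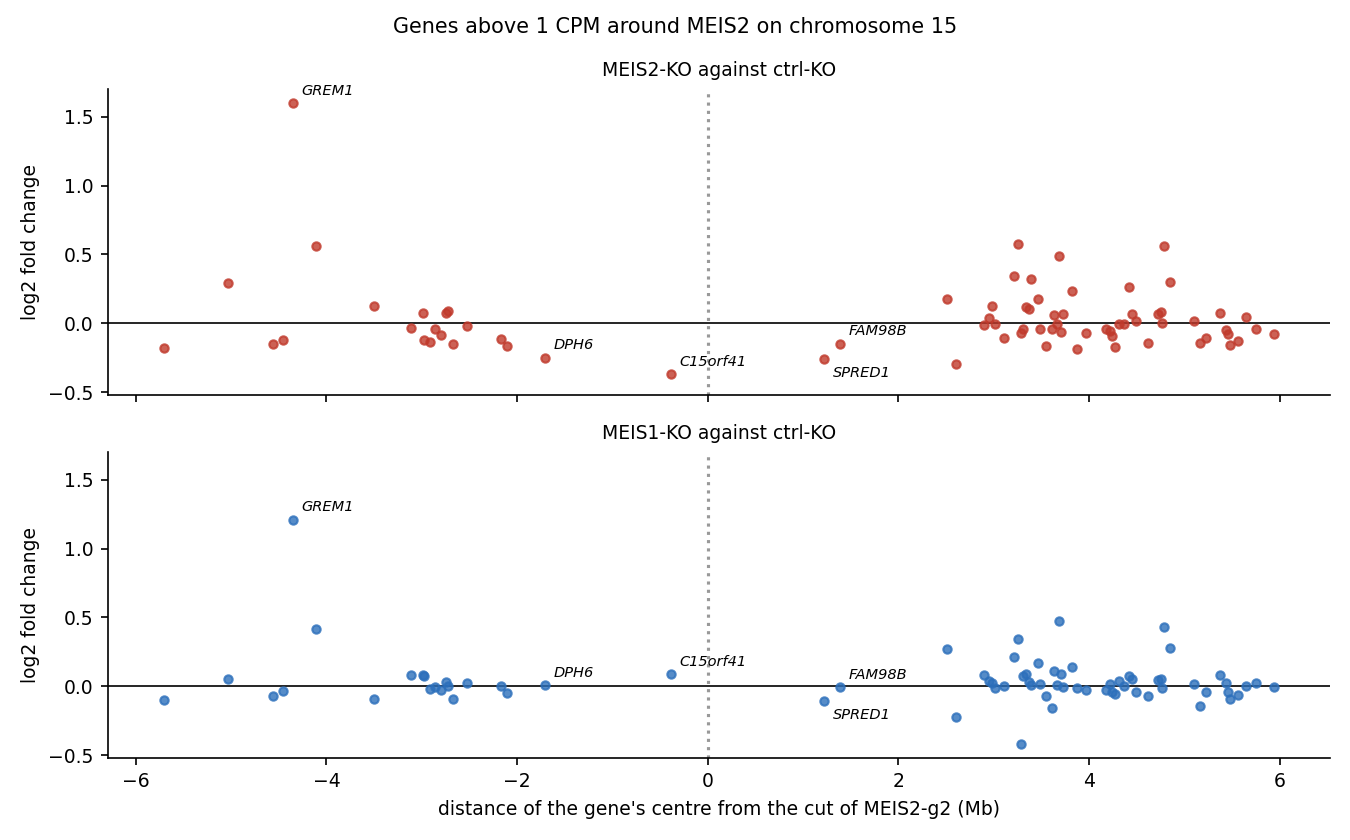
Log2 fold changes (vertical axes) of genes above 1 CPM against the distance of their centre from the cut of MEIS2-g2 on chromosome 15 (horizontal axis, Mb), in MEIS2-KO and in MEIS1-KO against the same controls, with MEIS2 itself left out. Of the 4 genes other than MEIS2 within 2 Mb, C15orf41, SPRED1 and FAM98B fell in MEIS2-KO by 0.37, 0.26 and 0.15; GREM1 at -4.35 Mb had 1.6.

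The study predicted sites elsewhere in the genome that resemble the guides. The MEIS2 guides had such sites in exons or introns of 46 genes, of which 39 were tested and 14 were called (35.9%, with 7 higher and 7 lower), against 14.2% of all tested genes. Whether the share differs from that of other genes was not tested. The sites of the 4 genes past 1.5-fold are shown, with bases in capitals where they differ from the guide.
KIAA1644: GTGacCcagcaggcaccccaggg
PLCH2: AccTcGcaCcaggcaccccaggg
RAPGEF3: AccaTCcagcaggcTccccatgg
SLC4A4: gttctgatCtAagAatacTatgg
Each has 4 mismatches. The first 3 resemble MEIS2-g2 and lie in an intron of KIAA1644 (chromosome 22, 44677511 to 44677533, minus strand), in an intron of PLCH2 (chromosome 1, 2413890 to 2413912, plus strand) and in an exon of RAPGEF3 (chromosome 12, 48140059 to 48140081, minus strand). The last resembles MEIS2-g5 and lies in an intron of SLC4A4 (chromosome 4, 72393789 to 72393811, minus strand). RAPGEF3, an exchange factor of RAP, was at 11.9 to 17 CPM in MEIS2-KO and 7.02 to 8.95 CPM in ctrl-KO, a log2 fold change of 0.77, and its value in MEIS1-KO was 0.59. KIAA1644 fell by 0.74 in MEIS2-KO and had -0.42 in MEIS1-KO, and SLC4A4, a bicarbonate transporter, fell by 0.59 and had -0.33. PLCH2 was at 0.0496 to 0.195 CPM in MEIS2-KO and at 0 to 0.0462 CPM in ctrl-KO, which rests on a handful of reads. Between the knockouts 0 of the listed genes differed. Cutting at these sites was not measured. Among the predicted genes of all its knockout guides, the study called only SMOC1, KIAA1644 and RAPGEF3 as changed against ctrl-KO. It reported that MEIS1 and MEIS2 both affected these genes, and did not count them as off-targets of a given guide.

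MEIS1-KO was compared with the same ctrl-KO libraries, so its values are given beside those of MEIS2-KO and not as a separate replication. In MEIS1-KO 212 of 17713 genes (1.2%) were called, 145 higher (0.819%) and 67 lower (0.378%). With GC correction, described below, these counts were 518 higher and 366 lower (4.99%), against 15.2% called in MEIS2-KO by the same fit. GREM1 had a log2 fold change of 1.6 in MEIS2-KO and 1.21 in MEIS1-KO, CD44 0.96 and 0.72, IGFBP5 -0.75 and -0.42, and PCDH8 -0.93 and -0.92. MEIS2-KO was also tested directly against MEIS1-KO, where the controls do not enter. Only 2 of 18343 genes (0.0109%) passed, MEIS1 and MEIS2 themselves, with log2 differences of 1.36 and -0.93 (adjusted p = 3.22e-09 for both, edgeR), and 939 genes (5.12%) had an unadjusted p under 0.05. NID2, a basement membrane protein, came next, with 297 ± 17.1 CPM in MEIS2-KO and 361 ± 25.3 CPM in MEIS1-KO (SD, n = 6; log2 difference -0.28, adjusted p = 0.0811, edgeR). Its adjusted p was 2.42e-04 with the replicate block, 0.00284 in DESeq2 and 0.0026 with GC correction. C15orf41 had a difference of -0.46 (adjusted p = 0.114, edgeR), and passed with the replicate block (0.0389) and with DESeq2 (0.00419). NID2 and C15orf41 were picked for this difference after their values were seen. The difference of IGFBP5 passed with GC correction and block together (-0.35, adjusted p = 0.00281, edgeR) and without MEIS1-KO replicate 3 (-0.40, adjusted p = 0.0058, edgeR). Those of CSMD3, NEFM, PCDH18 and SCD passed with GC correction and block together, where 35 genes did. For genes that did not pass in any fit, the larger values in MEIS2-KO are not shown to differ from those in MEIS1-KO.

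MEIS2-OE has controls of its own, ctrl-OE, so the reverse manipulation of MEIS2 could be set beside the knockout. CRISPR-activation raised MEIS2 from 23.8 to 867 CPM, a log2 fold change of 5.19, and 212 of 18336 genes (1.16%) were called, 178 higher (0.971%) and 34 lower (0.185%). Of the 1251 genes that fell in MEIS2-KO, 1248 were tested in MEIS2-OE, where 29 rose and 1 fell. Of the 1273 that rose in MEIS2-KO, 1270 were tested, where 34 rose and 8 fell. Over the 17523 genes tested in both, 172 rose and 34 fell in MEIS2-OE. The genes that moved oppositely, named after their values were seen, included the cell cycle inhibitor CDKN2C with log2 fold changes of -0.58 in MEIS2-KO and 2.50 in MEIS2-OE (adjusted p = 0.00132 and 5.21e-13, edgeR). BAALC, a membrane-bound protein of progenitor cells, had -0.38 and 0.87, ST8SIA4, which builds polysialic acid, -0.40 and 0.63, and SPOCK1, a proteoglycan, -0.37 and 0.62. FOXP2 had -0.41 and 0.44 (adjusted p = 1.45e-04 and 0.011, edgeR), SPRED1 -0.26 and 0.25, and SEMA3A -0.31 and 0.27. F13A1 moved the other way round, with 0.15 in MEIS2-KO and -0.73 in MEIS2-OE. Genes that rose in both included GREM1 (1.6 and 0.96), ANKRD1 (0.92 and 0.96), TFPI2 (0.52 and 0.52), DKK2 (0.88 and 0.67) and KDR (0.44 and 0.36). CDKN1A and PAX6 had values of 0.02 and -0.11 in MEIS2-OE, neither of which passed. p53 target genes rose in 1 of 36 cases in MEIS2-OE.

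Fold changes in MEIS2-KO moved with the GC content of the genes' exons, and this affects the many small differences. Over 12485 genes above 1 CPM with a known GC content, Pearson's r was 0.44 and Spearman's rho 0.53 between GC content and log2 fold change. These are across genes of the same 12 libraries, which are not independent. Among the 993 genes below 38% GC, 26 rose and 226 fell, with a median log2 fold change of -0.10. Among the 913 genes from 62% GC up, 133 rose and 2 fell, with a median of 0.16. The ctrl-KO libraries themselves differed in this respect, with r between their deviation from the ctrl-KO mean and GC content from -0.74 (replicate 2) to 0.68 (replicate 4), and MEIS2-KO libraries lay between 0.09 and 0.57. An added fit, chosen after this was seen, removed the trend from each library with a smooth curve. It called 1373 higher and 1324 lower genes (15.2%), of which 233 and 73 passed 1.5-fold. Of the genes called, 1904 were called in both fits, 620 without the correction alone and 793 with it alone. Of the 1904 genes, 0 had opposite signs in the fits. The estimated biological coefficient of variation was 0.0697 without and 0.0496 with the correction. Of 240 called genes named by rule, 20 were lost with it. With it, 33 of 36 p53 target genes were higher and 0 lower, and of the neural stem cell genes 3 were higher and 12 lower.

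**Figure D5:**
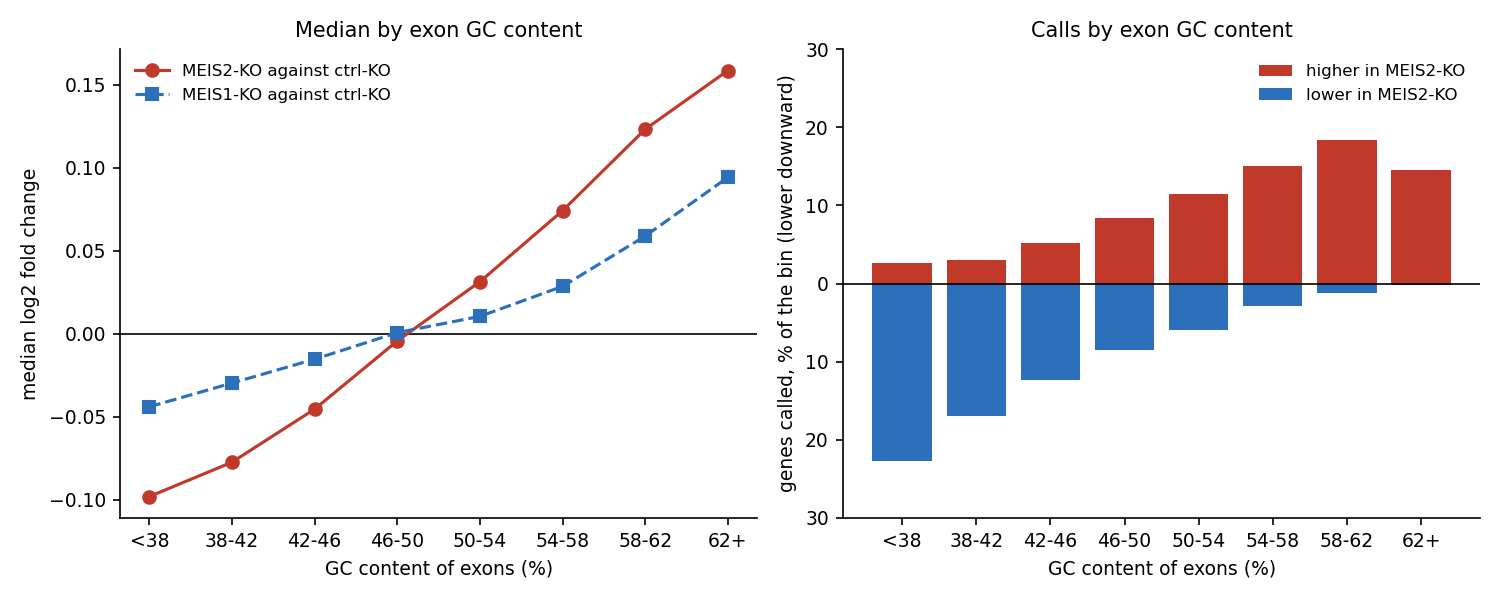
Genes above 1 CPM in bins of exon GC content (horizontal axes, percent). The first panel gives the median log2 fold change per bin in MEIS2-KO and in MEIS1-KO, which share their controls, and the second the share of genes called higher (upward) and lower (downward) in MEIS2-KO. The median rose from -0.10 below 38% GC to 0.16 from 62% GC up in MEIS2-KO.

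Promoters were searched for the core letters that MEIS proteins bind. RefSeq promoters (GRCh38.p14, 250 bases before to 50 bases after the start of a gene) were matched by symbol to 12227 of the tested genes (68.8%). TGACAG on either strand was found in 13.5% of these, in 14.1% of genes that rose and in 12.7% of genes that fell. Over all promoters of the table the share was 15.9%. TGACTCA, the AP-1 core, was in 3.16% of tested genes, 6.01% of those that rose and 2.28% of those that fell, and in 4.92% of all promoters. The stretches around TGACAG are shown for PLAU and ATF3, which rose, and LRRTM3, which fell, with the motif or its reverse complement in capitals.
PLAU: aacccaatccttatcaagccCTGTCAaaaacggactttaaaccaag
ATF3: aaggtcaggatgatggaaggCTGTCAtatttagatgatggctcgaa
LRRTM3: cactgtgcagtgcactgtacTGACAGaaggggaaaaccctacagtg
They lie at chr10:73910425-73910470, chr1:212565206-212565251 and chr10:67012133-67012178, all on the plus strand, with the motif at -165, -181 and -113 bases from the start site. A match of letters does not show that MEIS2 binds there.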

How the data were processed

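RNA-seq of 12 hNSC libraries (MEIS2-KO and ctrl-KO, n = 6 each) was analysed, with MEIS1-KO, MEIS2-OE and ctrl-OE for comparison. MEIS1-OE was not used here. The authors trimmed reads, aligned them to hg19 and deposited raw counts per gene, made with HTSeq 0.6.0. The submitters' notes name Trimmomatic 0.39 and give STAR as 2.7.0a in one place and 2.4.2a in another. The annotation and the strand setting of counting are not given in the sources used here.

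Genes with at least 10 summed counts were tested with edgeR 4.0.16 (TMM scaling, quasi-likelihood test, Benjamini-Hochberg adjustment, R 4.3.3) on the compared groups. CPM are TMM-scaled, and SD is over libraries. Calls had an adjusted p under 0.05. The fit was tested on simulated counts of the 17783 genes, in which it called 79 of 100 genes changed by 0.3 and 100 of 100 changed by 1 on the log2 scale, and 13 of 17583 others. Those counts were drawn independently with the same spread for all genes, and only better expressed genes were changed. They had no GC trend and no deviations shared between libraries, so they do not give the error rate or power in these data. Alternatives were RLE scaling, other filters, another prior count, other sets of libraries, DESeq2 1.42.0 without and with ashr 2.2.63, the replicate block and leaving out libraries. A correction for exon GC content (a loess curve per library, entered as offsets) was added after seeing the data. Position and GC content were known for 15649 tested genes (88%), from GENCODE v44 on GRCh37.

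Deviations from the group means correlated between MEIS2-KO and ctrl-KO libraries of the same number, with r from 0.104 to 0.509 over 13209 genes above 1 CPM. The numbers were therefore taken to pair the libraries in the fits with a replicate block. The main fit, which gave the counts and p-values where no other fit is named, had no block. Libraries 1 and 6 correlated more with another number (0.24 and 0.211), and over all tested genes r was 0.00431 to 0.174. With the GC trend taken out, r for the same number was 0.102 to 0.228 over 12371 genes above 1 CPM. Number 2 then had 0.228 instead of 0.509, and number 4 had 0.204 instead of 0.418. The pairing comes from the data and not from the labels.

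The named genes are the TALE genes, the 15 genes with the smallest p in each direction among non-overlapping genes past 1.5-fold, the 5 called genes of the highest CPM in each direction, up to 4 called genes of the smallest p in each direction per list, predicted off-target genes that passed, and cell type markers. The members and lists were chosen with earlier results of these data known. Further genes were named after their values were seen: BAX, BBC3, FAS, MDM2 and PMAIP1 for their role in the p53 response, and PROCR, F2RL2, F13A1, JUN, MYC, DACH1, HES5, SMAD9, BAALC, CDKN2C, SPOCK1, ST8SIA4 and NID2. Some genes that the rule names are not reported here. Off-target sites were those the study predicted.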

Additional observations from a re-analysis of the deposited data

Results flagged for a closer look

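In 7 of 96 groups of 6 libraries that were examined, 1 library lay far from the other 5, its gap to the nearest being beyond Dixon's 95% limit for 6 values. Chance alone flags about 1 group in 20. In MEIS2-KO, replicate 6 had the highest CD44 level, 21.2 CPM, with 18.5 CPM next. Replicate 1 of MEIS2-KO had the lowest ONECUT2 level, 9.71 CPM with 12.9 next, the highest PAX6 level, 31.4 CPM with 25.2 next, and the lowest total count, 15430000 with 20590000 next. The PAX6 level of replicate 1 was still below all ctrl-KO libraries. In ctrl-KO, replicate 3 had the lowest MAMDC2 level, 4.50 CPM, and replicate 6 the lowest LAPTM5 level, 18 CPM, and the highest KIAA1644 level, 16.7 CPM.

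Differences between the knockouts were tested directly. MEIS1 was higher in MEIS2-KO than in MEIS1-KO by 1.36 on the log2 scale, and MEIS2 had a difference of -0.93. NID2 had a difference of -0.29 with GC correction (adjusted p = 0.0026, edgeR), against an adjusted p of 0.0811 without it.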

How the results depend on the processing

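With replicate number as a block, 2351 genes rose and 2074 fell in MEIS2-KO, 4 differed between the knockouts and 582 were called in MEIS2-OE. With all libraries in 1 fit 796 genes rose. With ashr-shrunken fold changes of DESeq2, 90 genes rose and 23 fell by more than 1.5-fold. Without replicate 5 of both groups 736 rose and 641 fell, and without replicate 6 of both groups 825 rose and 663 fell, 45 of the latter by more than 1.5-fold. Between the knockouts 6 genes differed with DESeq2 and 35 with GC correction and the block together. Fewer libraries enter the fits that leave some out, and otherwise the cause was not tested.

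Leaving out libraries, 736 to 1562 genes rose, 641 to 1438 fell, 201 to 331 rose and 45 to 84 fell by more than 1.5-fold, and the log2 fold change of MEIS2 was -1.10 to -1.03. From 2 to 3 genes differed between the knockouts and 160 to 231 were called in MEIS2-OE. With GC correction, leaving out 1 number in both groups gave 929 to 1268 higher and 869 to 1217 lower genes.

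p53 target genes that rose numbered 28 to 33 of 36 when libraries were left out, replication genes that fell 13 to 19 of 42, neural stem cell genes that fell 10 to 13 of 22 and coagulation and wound-healing genes that rose 10 to 14 of 27. Of 240 named genes that were called, 183 were called in every alternative run, 57 were lost in at least 1 and 0 changed sign. Below 1 CPM the median standard error was 0.35 or more on the log2 scale, against 0.04 above 100 CPM, so only large differences could be detected there.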

Other observations

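Of 37 hypoxia and glycolysis genes 10 rose and 2 fell. For comparison with this and the lists that follow, 7.16% of all tested genes rose and 7.03% fell. The glucose transporter SLC2A1 rose from 1048 to 1345 CPM (adjusted p = 1.41e-04, edgeR), whereas hexokinase 2 (HK2) fell from 58.1 ± 2.50 to 41 ± 1.54 CPM (SD, n = 6; adjusted p = 6.30e-07, edgeR) and hexokinase 1 (HK1) rose by 0.28 on the log2 scale. Of 36 genes of the unfolded protein and integrated stress responses 7 rose and 2 fell. Among them SESN2, which is also a p53 target, rose by 0.48, the amino acid transporter chain SLC7A5 by 0.43 and PPP1R15A by 0.38. DDIT3 and TRIB3, which mark that response, had values of 0.17 and -0.03 without a call. Of 15 NF-kB and inflammatory genes 4 rose and 1 fell. The cytokines IL11 (0.86), IL1A (0.77) and LIF (0.49) and the adhesion protein ICAM1 (0.43) rose, with adjusted p of 2.90e-04, 4.62e-04, 2.80e-04 and 1.23e-04 (edgeR).

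Of 37 interferon-stimulated genes 6 rose and 1 fell, among them ISG15 up from 2.83 ± 0.808 to 4.34 ± 1.02 CPM and RSAD2 down from 0.266 ± 0.0622 to 0.115 ± 0.0393 CPM (SD, n = 6; adjusted p = 0.0219 and 0.0389, edgeR). The call of RSAD2 was lost in 9 of 17 alternatives, the replicate block with and without GC correction among them (adjusted p of up to 0.102). Of 14 glial genes 2 rose and 0 fell, APOE from 5.30 ± 1.14 to 9.90 ± 2.68 CPM and CSPG4 from 14.0 ± 1.52 to 22.5 ± 4.44 CPM (SD, n = 6; adjusted p = 6.28e-04 and 1.97e-04, edgeR). Ion channel genes were near the share of all genes, with 4 of 59 potassium channel genes higher and 3 lower, and 1 of 32 sodium and calcium channel genes higher and 3 lower. SCN8A, a neuronal sodium channel, fell by 0.32, and the related SCN2A rose by 0.34 (adjusted p = 6.74e-04 and 0.0078, edgeR). Of 78 nuclear genes of oxidative phosphorylation 3 rose and 0 fell, and with the replicate block 20 and 1. With the block, 2351 of all 17783 tested genes rose and 2074 fell.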
